A study of Mus musculus with 6 samples.

Results

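Bone morphogenetic protein (BMP) ligands and the secreted proteins that block them were followed across mesenchymal cells of mouse colon tumors. The members were the ligands Bmp2, Bmp3, Bmp4, Bmp5 and Bmp7 and the antagonists Grem1, Chrdl1, Fst and Nog, 9 genes of 19069 listed in the count tables. They were listed by name, with no threshold on their values, but with earlier results of these data known. BMP ligands are secreted as dimers and bind pairs of type I and type II serine/threonine kinase receptors, which phosphorylate receptor SMADs that enter the nucleus with Smad4 and switch on targets such as the Id genes. Antagonists bind the ligands outside the cell and keep them from their receptors. In the intestine, mesenchymal cells supply both: telocytes, thin subepithelial fibroblasts, are a known source of ligands near the differentiated epithelium, and fibroblasts beneath the crypt base are a known source of Gremlin 1 and other antagonists near the stem cells.

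Cells negative for EPCAM, CD45 and CD31 (markers of epithelial, immune and endothelial cells) were sorted singly into 384-well plates, 1 plate for each of 6 mice, and sequenced by SORT-seq, which counts the 3′ ends of transcripts with molecular barcodes. The tumors had been induced with the carcinogen azoxymethane and the colitis-inducing agent dextran sodium sulfate, a treatment that all mice shared. All mice also carried the conditional Zeb1 fl/fl alleles on a C57BL/6 background; they were age-matched, of both sexes, and differed in the Col6a1Cre transgene, a Cre recombinase that is active from development onwards in part of the mesenchyme of the colon. Zeb1Fib-Ctrl mice (mice 1, 3 and 4, Fib Ctrl in the plots) lacked the transgene, and Zeb1Fib-deleted mice (mice 2, 5 and 6, FibΔZeb1 in the plots) carried it, so that Zeb1, a transcriptional regulator of mesenchymal identity, was deleted in their fibroblasts. Each mouse is 1 library, and mouse 6 was sequenced in a run of its own, so that run and mouse cannot be told apart for it. The plates held 1575726 to 3699058 transcripts, the median kept well held 1687 to 11164 transcripts, and 1233 of 2304 wells had 100 to 6000 genes and under 10% of their transcripts from mitochondrial genes.

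Kept wells were assigned to classes by how many genes of fixed marker lists they contained, and no BMP gene was in a list. The fibroblast subtype lists were, however, written with the leading genes of earlier clusters of these data known. Bmp7 was among the genes that named an earlier telocyte-like group. The p-values between classes do not account for this choice. iCAF-like wells, fibroblasts with genes of inflammatory cancer-associated fibroblasts such as Cd34, Dpt, Clec3b and C3, numbered 353, with 119, 107, 9, 14, 97 and 7 wells in mice 1 to 6. Telocyte-like wells, with genes such as Foxl1, Sox6, F3 and Wnt5a, numbered 96, with 17, 25, 8, 33, 7 and 6 wells. A further 110 wells had fibroblast genes and passed neither list (other fibroblast wells), and 89 wells were pericyte-like, with genes of the cells that wrap small vessels, such as Rgs5 and Notch3. The gates also found 444 neutrophil and 74 epithelial wells, although the sort was meant to remove both. Neutrophil wells served as a measure of free RNA. Epithelial wells held some members above that level as deposited. At equal depth, the intervals of their shares of wells with a transcript overlapped those of neutrophil wells. Epithelial wells are given only beside them. In telocyte-like wells the marker Hsd17b2 was at 0, the iCAF-like markers Pi16, Penk and Inmt were at 0, and the 8 smooth muscle genes summed to 393 to 7835 CPM (transcripts of a gene per 1000000 transcripts of the wells) over mice. Pericyte-like wells held 5330 to 9719 CPM of smooth muscle genes and 7163 to 26520 CPM of the 10 general fibroblast genes, and other fibroblast wells held 1199 to 5941 CPM of smooth muscle genes. The part of these other transcripts in the results below was not tested. Other fibroblast wells stood between the other fibroblast classes on both subtype lists. Telocyte-like genes summed to 1678 CPM there, beside 7511 in telocyte-like and 361 CPM in iCAF-like wells. iCAF-like genes summed to 3649 CPM, beside 1490 and 11440 CPM. The median depth of other fibroblast wells, 5695 transcripts, was the lowest of the mesenchymal classes. Whether they were a class of their own, or shallow or mixed wells of the others, was not tested. Values are CPM over the wells of a class in a mouse, and each molecule counts once whatever the length of its gene.

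In GRCm38, Bmp2 lies at chr2:133552159-133562885 (plus strand), Bmp3 at chr5:98854415-98884396 (plus), Bmp7 at chr2:172868012-172940321 (minus), Chrdl1 at chrX:143285674-143394262 (minus), Fst at chr13:114452290-114458951 (minus) and Nog at chr11:89300638-89302332 (minus). Promoter sequences are shown for the 3 members found in the RefSeq promoter table, beside a motif that the product of the deleted gene is known to bind: Bmp5 (chr9:75775364-75900310, plus strand), Bmp4 (chr14:46383520-46390669, minus strand) and Grem1 (chr2:113746164-113758646, minus strand) are printed 5′ to 3′ on their own strand, 250 bases up to the RefSeq transcript start, at chr9:75775115-75775364, chr14:46390670-46390919 and chr2:113758649-113758898 of GRCm38.p6. Capitals mark CAGGTG, an E-box motif of the kind that ZEB proteins bind, whose other strand reads CACCTG.
Bmp5: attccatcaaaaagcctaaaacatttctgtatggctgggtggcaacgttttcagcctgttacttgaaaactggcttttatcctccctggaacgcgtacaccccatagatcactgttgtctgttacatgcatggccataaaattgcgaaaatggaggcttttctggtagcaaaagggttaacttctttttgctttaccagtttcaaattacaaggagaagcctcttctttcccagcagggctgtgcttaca
Bmp4: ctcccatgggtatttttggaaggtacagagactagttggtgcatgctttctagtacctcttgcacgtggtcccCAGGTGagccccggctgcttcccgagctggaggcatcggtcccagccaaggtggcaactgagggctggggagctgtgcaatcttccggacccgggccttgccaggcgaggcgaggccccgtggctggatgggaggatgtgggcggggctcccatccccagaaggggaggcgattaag
Grem1: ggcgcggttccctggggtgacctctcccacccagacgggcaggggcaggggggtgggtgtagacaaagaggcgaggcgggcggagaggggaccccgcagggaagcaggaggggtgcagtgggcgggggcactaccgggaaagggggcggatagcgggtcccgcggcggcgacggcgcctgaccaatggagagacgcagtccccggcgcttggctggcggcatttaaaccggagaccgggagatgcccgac
The Grem1 promoter was 72% G and C, higher than 93.1% of 32851 RefSeq promoter windows of the same length, and held 24 CG dinucleotides. The Bmp5 promoter was 42.8% G and C, higher than 17.9% of windows, with 4 CG dinucleotides, and the Bmp4 promoter was 63.2% G and C with 11. The searched motif occurred once in the Bmp4 window, 177 bases before the start, and its letters were not in the other windows; 17.2% of all windows held it on either strand.

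Bmp4 was the ligand with the most transcripts in fibroblasts, and it was high in all 3 fibroblast classes. This ligand is made by stromal cells in many organs. In iCAF-like wells it stood at 926, 1079, 980, 985, 505 and 1702 CPM in mice 1 to 6. In telocyte-like wells it stood at 2007, 2081, 1622, 1780, 2074 and 750 CPM, so that 5 of 6 mice had more in telocyte-like wells and mouse 6 had less. Other fibroblast wells held 926, 1206, 1279 and 504 CPM in mice 1, 2, 4 and 5, the mice with at least 5 such wells. The fit used 14 sums of at least 10 wells: mice 1, 2, 4 and 5 for iCAF-like and other fibroblast wells, and the 3 mice 1, 2 and 4 for telocyte-like and pericyte-like wells. In it, Bmp4 was 0.82 higher on the log2 scale in telocyte-like than in iCAF-like wells (SE 0.28, adjusted p = 0.063), which did not pass the threshold of 0.05. With at least 5 wells a sum and mouse 6 left out, the difference was 1.02 (adjusted p = 0.00868), and with a gate that asked for 1 marker more it was 1.04 (adjusted p = 0.00573). With mouse 6 kept and at least 5 wells a sum it was 0.70 (adjusted p = 0.132), and 13 of 16 alternatives left it uncalled, with an adjusted p of up to 0.204. iCAF-like and other fibroblast wells differed by -0.03 (SE 0.25, adjusted p = 0.988). No pair of fibroblast classes next to each other in the order of Bmp4 levels thus differed by a margin that passed the test.

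**Figure D1:**
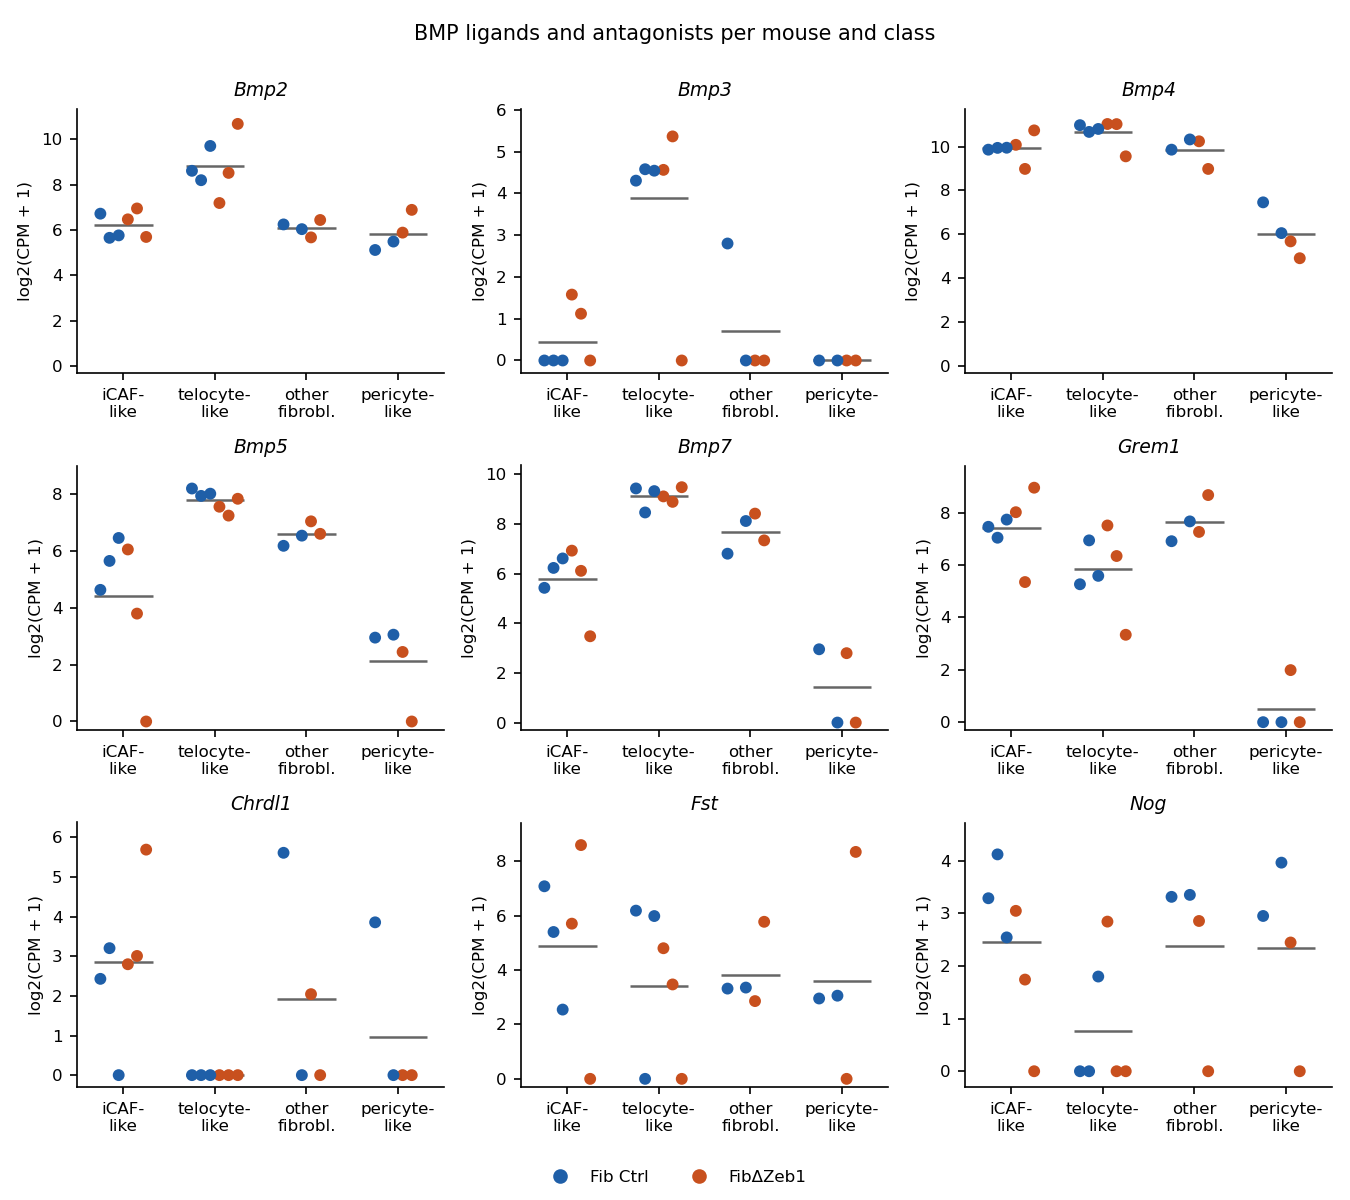
Level of each BMP ligand and antagonist (log2 of CPM plus 1, y axis) in iCAF-like, telocyte-like, other fibroblast and pericyte-like wells (x axis); each point is 1 mouse with at least 5 wells of the class, in the color of its genotype, and lines are means over mice. Bmp7 and Bmp5 are higher in telocyte-like than in iCAF-like wells in 6 of 6 mice, and Grem1 is near 0 in pericyte-like wells.

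Bmp7 and Bmp5 were higher in telocyte-like than in iCAF-like wells in 6 of 6 mice. They are ligands of one subgroup that signal through shared receptors. Bmp7 stood at 42.0, 121, 74.0, 96.7, 68.1 and 10.1 CPM in iCAF-like wells of mice 1 to 6, and at 689, 552, 352, 639, 474 and 713 CPM in telocyte-like wells. The 2 sets of values did not overlap. Other fibroblast wells, with 111, 341, 277 and 161 CPM in mice 1, 2, 4 and 5, lay between them, as they did on the subtype marker lists. Bmp7 was 2.87 higher on the log2 scale in telocyte-like than in iCAF-like wells (SE 0.31, adjusted p = 4.02e-06) and 1.53 higher than in other fibroblast wells (SE 0.31, adjusted p = 0.0104). iCAF-like wells were in turn 1.34 below other fibroblast wells (log2 difference -1.34, SE 0.30, adjusted p = 0.0114). The first difference passed under every alternative run. The second was 0.98 (adjusted p = 0.261) without mouse 1, and the third was -1.26 (adjusted p = 0.0653) without mouse 2.

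Bmp5 stood at 23.8, 65.5, 49.3, 87.1, 12.9 and 0 CPM in iCAF-like wells and at 293, 188, 244.8, 259, 151 and 228 CPM in telocyte-like wells. The lowest telocyte-like mouse lay above the highest iCAF-like mouse. The log2 difference was 2.27 (SE 0.35, adjusted p = 0.000176). Other fibroblast wells held 71.7, 131, 92.2 and 96.4 CPM in mice 1, 2, 4 and 5, and the difference from telocyte-like wells, 1.13 (SE 0.36, adjusted p = 0.142), did not pass the test. The difference of iCAF-like from other fibroblast wells was -1.14 (SE 0.37, adjusted p = 0.0826).

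Bmp2, a close relative of Bmp4, was also higher in telocyte-like wells but far less even. It stood at 104, 87.4, 49.3, 53.2, 122 and 50.7 CPM in iCAF-like wells of mice 1 to 6, and at 388, 145, 291, 829, 364 and 1627 CPM in telocyte-like wells. Every telocyte-like value lay above every iCAF-like value, but the telocyte-like values spanned a wide range. In mouse 6, 1 well held 168 transcripts, 22.2% of all Bmp2 in the class, and without it the level there was 136 CPM. Other fibroblast wells held 74.7, 50.0, 64.5 and 85.7 CPM in mice 1, 2, 4 and 5. The log2 difference of telocyte-like wells was 1.98 from iCAF-like wells (SE 0.38, adjusted p = 0.00128) and 2.61 from other fibroblast wells (SE 0.42, adjusted p = 0.00184), in a fit that mice 3 and 6 do not enter. Without mouse 4, the difference from iCAF-like wells was 1.24 (adjusted p = 0.017).

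Bmp3, which differs from the other ligands in that it can dampen BMP signaling, was rare. Telocyte-like wells held 18.8, 22.7, 22.9, 22.4, 40.3 and 0 CPM in mice 1 to 6, and iCAF-like wells held at most 1.99 CPM. Of its transcripts, 32 came from telocyte-like and 4 from iCAF-like wells, a ratio of CPM of 23.5 with a counting interval of 8.33 to 91.4. Counting intervals, here and below, treat the transcripts of all mice and wells as independent. They do not cover the spread between mice. Bmp3 was too low for the fit, and so were Chrdl1 and Nog, so that 6 of 9 members were tested between classes. Of the 4 ligands tested, 3 (Bmp2, Bmp5 and Bmp7) were higher in telocyte-like than in iCAF-like wells and none lower, where 5.45% of all 7596 genes tested were called higher, 6.71% lower and 12.2% in either direction. The median log2 difference of these ligands was 2.12, beside 0.01 over all genes. Against other fibroblast wells, 2 of 4 (Bmp2 and Bmp7) were higher, where 0.869% of genes were called higher, 1.21% lower and 2.08% in either direction.

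Among the antagonists, Grem1, which encodes Gremlin 1 and binds Bmp2, Bmp4 and Bmp7, was the one with the most transcripts. It stood at 176, 259, 131, 213, 39.9 and 497 CPM in iCAF-like wells of mice 1 to 6 and at 37.6, 182, 122, 47.2, 80.5 and 9.12 CPM in telocyte-like wells. The groups overlapped, and Grem1 was lower in telocyte-like wells in 5 of 6 mice, mouse 5 being the exception. In other fibroblast wells it stood at 120, 153, 203 and 409 CPM in mice 1, 2, 4 and 5, and in mouse 5 a single well held all 38 transcripts, without which the level there was 0. The log2 difference of telocyte-like from iCAF-like wells was -1.19 (SE 0.51, adjusted p = 0.169) and did not pass the test, while it passed without mouse 5 (-1.49, adjusted p = 0.00405) and with at least 5 wells a sum (-1.39, adjusted p = 0.0431). In telocyte-like wells of mouse 2, 1 well held 46 transcripts, 32.5% of the Grem1 of the class, and the level there was 90.3 CPM without it. Telocyte-like and other fibroblast wells differed by -1.39 (SE 0.58, adjusted p = 0.329), and iCAF-like and other fibroblast wells by -0.20 (SE 0.48, adjusted p = 0.914).

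Fst encodes follistatin, which binds activins and, less tightly, BMPs. It varied widely between mice. iCAF-like wells held 134, 51.0, 41.1, 4.84, 384 and 0 CPM in mice 1 to 6. Telocyte-like wells held 71.5, 26.8, 0, 62.2, 10.1 and 0 CPM, and other fibroblast wells held 8.96, 6.25, 9.22 and 53.6 CPM in mice 1, 2, 4 and 5. Fst was 3.19 higher on the log2 scale in iCAF-like than in other fibroblast wells (SE 0.52, adjusted p = 0.000838), although in mouse 4 the levels themselves were 4.84 against 9.22 CPM, from 1 transcript each. Fst and Bmp7 were the 2 members called in that contrast, in which 2.94% of genes were called higher, 2.47% lower and 5.41% in either direction. Telocyte-like wells were 2.76 above other fibroblast wells (SE 0.63, adjusted p = 0.0246), a call that was lost without mouse 1 (2.82, adjusted p = 0.235), without mouse 2 (3.12, adjusted p = 0.0517) and without mouse 5 (2.90, adjusted p = 0.0519). The difference of telocyte-like from iCAF-like wells was -0.43 (SE 0.43, adjusted p = 0.649) and was 0.04 without mouse 1.

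Chrdl1 and Nog were near the limit of detection. Chrdl1, a chordin-like protein, was at 0 in telocyte-like wells of all 6 mice, where 3 transcripts would correspond to 2.01 CPM. iCAF-like wells held 4.39, 5.96, 8.22, 0, 7.04 and 50.7 CPM, or 6.39 CPM over all their wells, which is 3.18 times that floor. In other fibroblast wells, 15 of 17 transcripts came from 1 well of mouse 1. Nog, which encodes noggin, stood at 8.78, 7.28, 16.4, 4.84, 2.35 and 0 CPM in iCAF-like wells and at 0, 6.19, 0, 2.48, 0 and 0 CPM in telocyte-like wells, from 30 and 4 transcripts. The ratio of telocyte-like to iCAF-like Nog was 0.392, and its counting interval of 0.1 to 1.11 included no difference. Of the 4 telocyte-like transcripts, 3 came from 1 well of mouse 2.

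Ligands and antagonists were then summed. In telocyte-like wells the 5 ligands together came to 3396, 2988, 2532, 3529, 3103 and 3319 CPM in mice 1 to 6, and in iCAF-like wells to 1096, 1355, 1153, 1222, 709 and 1762 CPM. Antagonists made up 3.11%, 6.72%, 4.61%, 3.07%, 2.84% and 0.274% of member transcripts in telocyte-like wells, beside 22.7%, 19.3%, 14.6%, 15.4%, 37.9% and 23.7% in iCAF-like wells. Neither the summed ligands nor the antagonist shares overlapped between the 2 classes. The summed antagonists themselves did overlap, at 109, 215, 122, 112, 90.6 and 9.12 CPM in telocyte-like and 323, 324, 197, 223, 433 and 548 CPM in iCAF-like wells, and were lower in telocyte-like wells in 6 of 6 mice, so that the shares also carry the higher ligand sums. Other fibroblast wells lay between, at 13.5%, 8.91%, 11.4% and 35.3% in mice 1, 2, 4 and 5. Single wells weighed on some of these values. In telocyte-like wells of mouse 6, 1 well gave 168 of 364 ligand transcripts, and the share of 0.274% rests on 1 antagonist transcript. In other fibroblast wells of mouse 5, 1 well gave 38 of 43 antagonist transcripts.

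**Figure D2:**
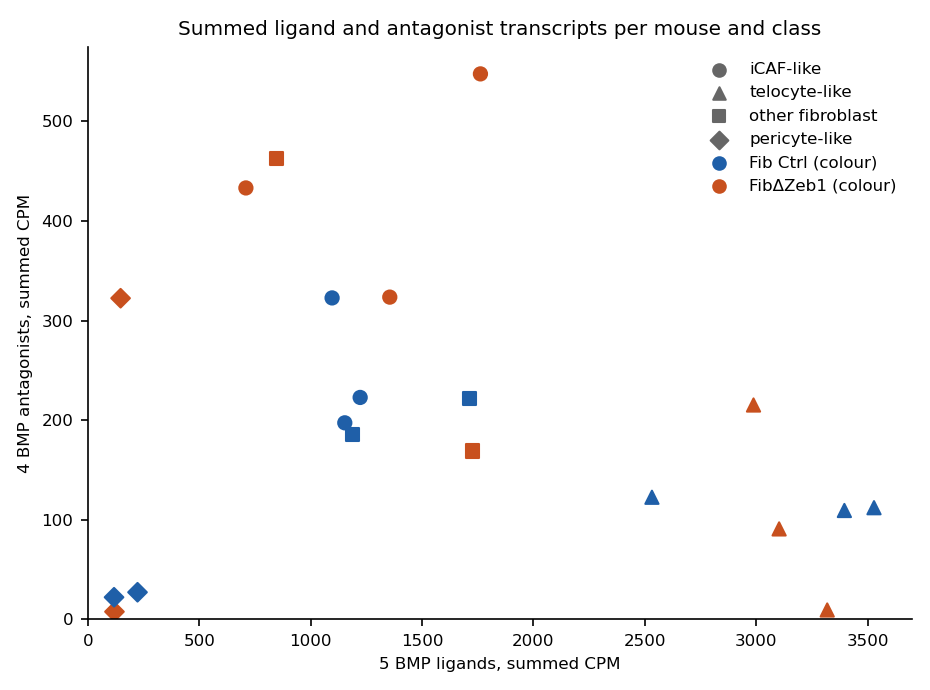
Summed antagonists (CPM, y axis) against summed ligands (CPM, x axis) for each mouse and class with at least 5 wells; the shape of a point marks the class and its color the genotype. Telocyte-like wells lie at 2532 to 3529 CPM of ligands, above iCAF-like wells at 709 to 1762 CPM.

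The split over cells followed. Telocyte-like wells gave 18.9% of all transcripts of the 648 mesenchymal wells but 58.3% of Bmp2, 84.2% of Bmp3, 35.2% of Bmp4, 55.9% of Bmp5 and 61.6% of Bmp7. They gave 12.8% of Grem1, 8.23% of Fst, 7.84% of Nog and 0% of Chrdl1. iCAF-like wells gave 55.6% of all transcripts, 73.4% of Grem1 and 88.4% of Fst, with 59.5% of Chrdl1 and 58.8% of Nog. Single mice departed from the pooled shares. In mouse 4, iCAF-like wells gave 3.57% of Fst and telocyte-like wells 89.3%, beside 24.2% and 47.1% of all transcripts. In mouse 5, iCAF-like wells gave 42.4% of Grem1 and 79% of all transcripts. The pooled shares weight the mice by their wells, which contributed unequal numbers of wells: telocyte-like wells gave between 9.21% (mouse 5) and 47.1% (mouse 4) of a mouse's mesenchymal transcripts.

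Pericyte-like wells held little of either group, apart from Bmp2. Nog was near the limit of detection there, with 11 transcripts in 4 of 89 wells. Bmp4 stood at 175.2, 50.5, 65.8 and 29.3 CPM in pericyte-like wells of mice 1, 2, 4 and 5, below the 222, 104, 127 and 35.6 CPM of the neutrophil wells of the same mice. Neutrophil wells were shallower, with a median of 1476 transcripts against 11362. As deposited, Bmp4 was found in 49.4% of pericyte-like and 10.6% of neutrophil wells. Whether Bmp4 of pericyte-like wells was free RNA was not tested. Bmp5 was at 0 to 7.31 CPM and Bmp7 at 0 to 6.74 CPM there, and Bmp3 had no transcript. Grem1 had 2 transcripts in all pericyte-like wells, a ratio to fibroblast wells of 0.0111 with a counting interval of 0.00134 to 0.0401. Bmp2 stood at 33.7, 58.0, 43.9 and 117 CPM in these mice, beside 0, 9.49, 0 and 0 CPM in their neutrophil wells. Of Fst, 84.6% of the transcripts in pericyte-like wells came from 1 well of mouse 5.

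All 6 members tested were lower in pericyte-like wells than the mean of the 3 fibroblast classes, where 9.91% of genes were called lower, 10.3% higher and 20.2% in either direction. The log2 difference was -3.98 for Bmp4 (SE 0.33, adjusted p = 3.13e-08), -5.67 for Bmp7 (SE 0.53, adjusted p = 1.48e-07) and -4.43 for Bmp5 (SE 0.60, adjusted p = 1.34e-05). For Grem1 it was -6.37 (SE 1.04, adjusted p = 0.00011), and pericyte-like sums at or near 0 make the size of that value depend on the prior count. For Bmp2 it was smaller, -1.36 (SE 0.41, adjusted p = 0.0233), and did not pass without mouse 1 (-1.15, adjusted p = 0.185). For Fst it was -3.49 (SE 0.90, adjusted p = 0.00787), and it did not pass with at least 5 wells a sum, which lets mouse 5 in (-1.10, adjusted p = 0.425), or without mouse 2 (-2.42, adjusted p = 0.177). Nog was too low for the fit, and its 11 transcripts gave a ratio to fibroblast wells of 1.69, with a counting interval of 0.78 to 3.35, and 5 of them came from 1 well of mouse 6.

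The share of wells with a transcript was read as deposited and at equal depth. As deposited, Bmp4 was found in 86.4% of iCAF-like wells (exact binomial 95% interval 82.4 to 89.8), 96.9% of telocyte-like wells (91.1 to 99.4), 60.9% of other fibroblast wells (51.1 to 70.1) and 49.4% of pericyte-like wells (38.7 to 60.2). Median depths were 11650, 15042, 5695 and 11362 transcripts, so that the classes were not equally deep. After each well was thinned to 1000 barcodes, which left out 177 shallower wells and kept 83 of 110 other fibroblast wells, the shares were 45.3%, 76%, 47% and 8.99%. Neutrophil wells, which should lack Bmp4, had 10.6% as deposited at a median depth of 1476 transcripts and 5.73% after thinning (3.43 to 8.91). The interval of the thinned share in pericyte-like wells, 3.96 to 16.9, overlapped that of neutrophil wells. The 2 classes differed in depth before thinning, so this overlap cannot show whether Bmp4 of pericyte-like wells was free RNA.

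Bmp7 was found in 96.9% of telocyte-like and 29.7% of iCAF-like wells as deposited, and in 49% (38.6 to 59.4) and 7.08% (4.64 to 10.3) after thinning, against 0.637% of neutrophil wells. Bmp5 was found in 85.4% and 22.4% as deposited, and in 26% (17.6 to 36) and 5.1% (3.05 to 7.94) after thinning. Grem1 went the other way, at 27.1% of telocyte-like and 40.5% of iCAF-like wells as deposited, but its thinned shares of 7.29% (2.98 to 14.4) and 14.2% (10.7 to 18.2) had overlapping intervals; neutrophil wells were at 0.318%. No telocyte-like well held Chrdl1 (0 of 96 wells, which allows a share of up to 3.12% by a floor of 3 wells and of up to 3.77% by the exact binomial interval), beside 6.52% of iCAF-like wells as deposited and 0 after thinning. These intervals cover counting error over wells and not the spread between mice.

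**Figure D3:**
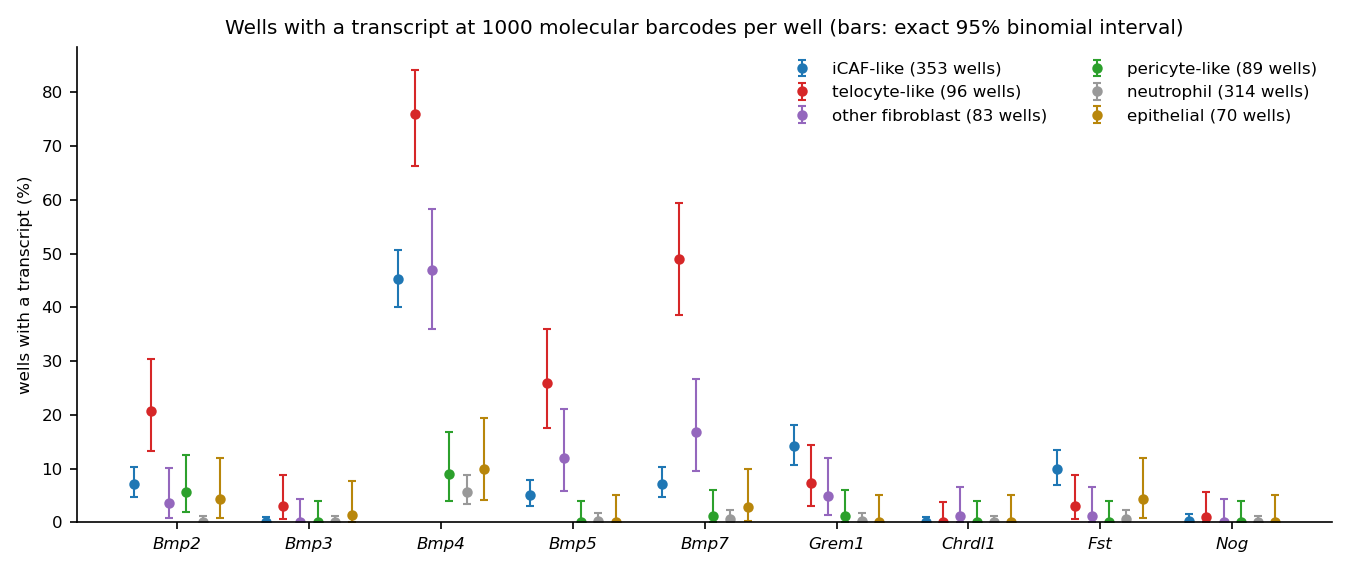
Share of wells with at least 1 transcript of each member (percent, y axis) after thinning to 1000 barcodes, by class, with neutrophil wells as a measure of free RNA and epithelial wells beside them; points are shares over all mice and lines their exact binomial 95% intervals. Bmp4 reaches 76% and Bmp7 49% of telocyte-like wells, beside 45.3% and 7.08% of iCAF-like wells.

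Ligands and antagonists were found in the same wells. A ligand and an antagonist were both present in 223 of 353 iCAF-like wells (63.2%), 35 of 96 telocyte-like wells (36.5%), 24 of 110 other fibroblast wells (21.8%) and 7 of 89 pericyte-like wells (7.87%). An antagonist without any ligand was found in 19 iCAF-like wells and in no telocyte-like well. The median number of different ligands in a well was 4 in telocyte-like and 2 in iCAF-like wells. Of 143 iCAF-like wells with Grem1, 136 also held Bmp4, beside 305 of 353 over the class, and all 26 telocyte-like wells with Grem1 also held Bmp4 and Bmp7, each present in 93 of 96. Deep wells hold more of every gene, so these counts are a description of co-occurrence at the depth deposited. After thinning, 32 iCAF-like and 7 telocyte-like wells held both Bmp4 and Grem1.

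Other genes of the pathway were taken from fixed lists, of which 4 of 10 further ligands, 8 of 12 further antagonists, 7 of 10 receptors, 3 of 4 SMADs and 8 of 10 target genes were high enough to be tested between classes. Among ligands of the wider family, Inhba and Inhbb, whose products form activins, were higher in telocyte-like than in iCAF-like wells by 4.49 (SE 0.39, adjusted p = 2.82e-07) and 2.98 (SE 0.49, adjusted p = 0.000347) on the log2 scale. Inhba stood at 199 to 4662 CPM in telocyte-like and at 0 to 24.5 CPM in iCAF-like wells. Gdf10 was at 0 in telocyte-like wells of all mice and at 17.2 to 244 CPM in iCAF-like wells, and was called lower. The 4 ligands tested had a median difference of 0.90.

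Of the 8 further antagonists, Chrd (chordin, -1.84, adjusted p = 0.0358), Chrdl2 (-1.58, adjusted p = 0.0274) and the follistatin-like Fstl1 (-1.02, adjusted p = 0.00712) were lower in telocyte-like than in iCAF-like wells. Twsg1, a BMP-binding partner of chordin, was higher (1.47, adjusted p = 0.000487). The median over the list was -0.69. Of the 7 receptors, only Rgma, a co-receptor, was called (-1.62, adjusted p = 0.0416), and of the 3 SMADs none was; Smad4 differed by -0.02. Of the 8 target genes, Id2 (1.44, adjusted p = 0.0339), Atoh8 (2.03, adjusted p = 0.0384) and Smad6, an inhibitory SMAD (1.39, adjusted p = 0.00898), were higher in telocyte-like wells and none was lower, and the list's median was 0.50. Between telocyte-like and other fibroblast wells, Inhba (3.37, adjusted p = 0.000146) and Twsg1 (1.10, adjusted p = 0.0233) were higher and Id4 was lower (-2.12, adjusted p = 0.0488). Between iCAF-like and other fibroblast wells, Gdf10 (3.31, adjusted p = 0.00106) and Fstl1 (0.98, adjusted p = 0.00988) were higher and no target gene was called.

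The pericyte-like wells, which held the fewest ligand transcripts, held more of several target genes. Of 8 tested, 6 were higher than the mean of the fibroblast classes: Id1 (1.77, adjusted p = 6.17e-05), Id3 (1.49, adjusted p = 6.78e-05), Id4 (2.19, adjusted p = 7.89e-05), Atoh8 (1.77, adjusted p = 0.016), Smad6 (0.85, adjusted p = 0.0447) and Smad7 (1.04, adjusted p = 0.0055). The Id genes encode inhibitors of basic helix-loop-helix factors, and other pathways also act on them. Id3 stood at 1934, 1528, 1680 and 1556 CPM in pericyte-like wells of mice 1, 2, 4 and 5, above every mouse with at least 5 wells of a fibroblast class, the highest of which stood at 1030 CPM. Id1 stood at 418, 356, 234 and 29.3 CPM there, and the 5 wells of mouse 5 were the exception. The list's median was 1.26, beside -0.01 over all genes.

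Receptors and genes listed as further antagonists differed in both directions in pericyte-like wells. The type II receptor Bmpr2 was higher (0.98, adjusted p = 0.00171) and the type I receptor Acvrl1 lower (-0.86, adjusted p = 0.025). The BMP-binding Bmper (1.99, adjusted p = 0.00221) was higher, while Chrdl2 (-5.47, adjusted p = 0.000275), Nbl1 (-1.03, adjusted p = 0.00303), Twsg1 (-1.09, adjusted p = 0.00201) and Kcp (-2.15, adjusted p = 0.00275) were lower. Bmp6 had no transcript in pericyte-like wells of mice 1, 2, 4 and 5 and was called lower. Smooth muscle genes were also high in these wells, as given above, and their part in these differences was not tested.

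**Figure D4:**
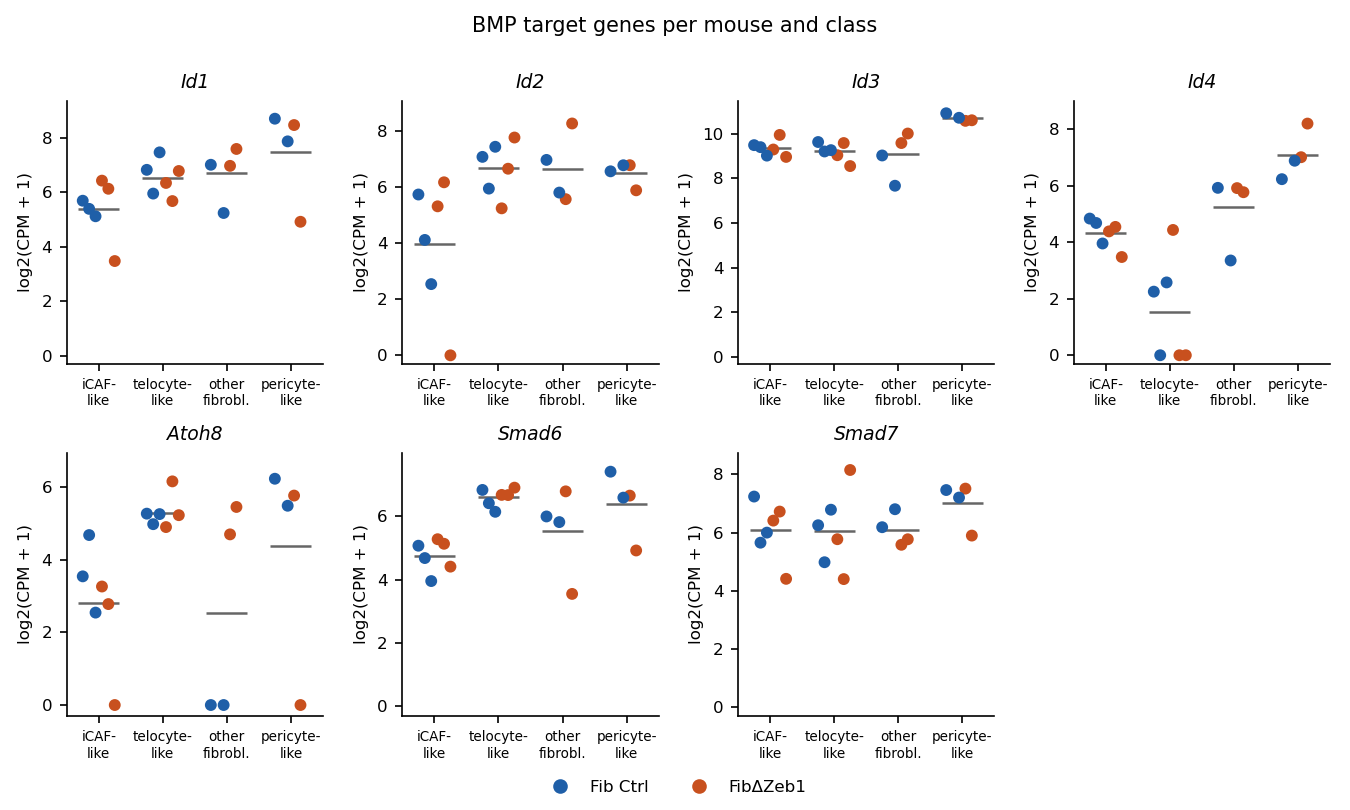
Level of the 7 BMP target genes called in at least 1 contrast (log2 of CPM plus 1, y axis) by class (x axis), 1 point for each mouse with at least 5 wells, in the color of its genotype, and lines are means over mice. Id3 in pericyte-like wells lies at 1528 CPM or above in every mouse.

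The genes whose levels over the 14 sums were most like those of each member are given as a description, since sums of 1 mouse share a library and all differ by class. For Bmp7 these were Tmem119 (Pearson r = 0.975), Pcdh7 (0.965) and Fscn1 (0.951), and for Bmp4 Fscn1 (0.962), Pmepa1 (0.958) and Fbln5 (0.954). For Bmp5 they were Ptgs1 (0.958), Pappa (0.956) and Emilin1 (0.943). Grem1 was most like Svep1 (0.974), Fgf10 (0.961) and C4b (0.955). The values were lower for Bmp2, with Ube2r2 (0.843), 9930013L23Rik (0.83) and F3 (0.83), which is itself a gate marker, and for Fst, with Ppp3ca (0.796), Mapk6 (0.793) and Apod (0.776).

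For the comparison of genotypes, Zeb1 itself was checked first in fibroblast wells. It stood at 111, 108 and 94.8 CPM in Zeb1Fib-Ctrl mice 1, 3 and 4 and at 59.6, 71.8 and 65.7 CPM in Zeb1Fib-deleted mice 2, 5 and 6. The genotypes did not overlap in the direction of the labels (exact permutation test, two-sided p = 0.1, the smallest that 3 against 3 mice allow; log2 difference -0.63, SE 0.21, unadjusted p = 0.0164 and adjusted p = 1 in edgeR). Zeb1 remained well above 0 in the Zeb1Fib-deleted mice. Neither the position of the counted 3′ end relative to the deleted exon nor the share of fibroblasts with the deletion was tested. The level thus does not measure how complete the deletion was.

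No member was called as different between genotypes. On simulated counts, the fit over fibroblast wells recovered 12 of 100 genes changed 2-fold and 81 of 100 changed 4-fold. A 2-fold difference of a member can therefore go uncalled. Bmp4 in fibroblast wells stood at 1057, 1319 and 1475 CPM in Zeb1Fib-Ctrl mice 1, 3 and 4 and at 1307, 654 and 1342 CPM in Zeb1Fib-deleted mice 2, 5 and 6, or 1284 ± 211 against 1101 ± 388 (SD, n = 3 each; exact permutation p = 0.6). Grem1 stood at 151, 127 and 119 CPM against 228, 76.7 and 206 CPM, 132 ± 16.6 against 170 ± 81.8 (SD, n = 3 each; exact permutation p = 0.4). The Zeb1Fib-deleted mice lay both above and below the controls for these 2 genes.

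Bmp2 stood at 134, 169 and 490 CPM in Zeb1Fib-Ctrl mice 1, 3 and 4 and at 94.2, 142 and 758 CPM in Zeb1Fib-deleted mice 2, 5 and 6 (exact permutation p = 0.9). Bmp5 stood at 63.8, 154 and 184 CPM against 100, 33.5 and 136 CPM (exact permutation p = 0.4), and Bmp7 at 131, 219 and 428 CPM against 241, 115 and 371 CPM (exact permutation p = 0.9). The 3 lowest mice were mice 1, 2 and 5 for Bmp2 and Bmp5, and mice 5, 1 and 3 for Bmp7. Mice 1, 2 and 5 had the lowest shares of mesenchymal transcripts from telocyte-like wells, 11.3%, 16.2% and 9.21%, against 42.6%, 47.1% and 35.4% in mice 3, 4 and 6. A further fit used sums per mouse and class of at least 10 wells, with class as a covariate. Mice 3 and 6 do not enter it, and it has no mouse block, so that sums of 1 mouse count as independent. Its genotype differences were -0.44 for Bmp2, 0.02 for Bmp5 and 0.39 for Bmp7 on the log2 scale (adjusted p = 1 for each). Fst stood at 107, 19.2 and 37.7 CPM against 39.8, 319 and 0 CPM (exact permutation p = 0.8). The rare members Bmp3 (p = 0.3), Chrdl1 (p = 0.5) and Nog (p = 0.2, exact permutation tests) were at or below 20.5 CPM in every mouse.

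In edgeR, the log2 differences of Zeb1Fib-deleted from Zeb1Fib-Ctrl mice were 0.29 for Bmp2 (SE 0.76), -0.19 for Bmp4 (SE 0.28), -0.57 for Bmp5 (SE 0.50), -0.08 for Bmp7 (SE 0.47), 0.36 for Grem1 (SE 0.37) and 1.10 for Fst (SE 1.06), all with adjusted p = 1. Of 8760 genes 0% were called (0 genes, with 140 at an unadjusted p under 0.05), and DESeq2 called 8, none of them a member. The genes of the pathway lists had 0 calls as well. The standard error was larger than the difference for 4 of the 6 genes and close to it for Bmp5 and Fst. Within telocyte-like wells, Bmp5 was 293, 244.8 and 259 CPM in Zeb1Fib-Ctrl mice and 188, 151 and 228 CPM in Zeb1Fib-deleted mice, without overlap (266 ± 25 against 189 ± 38.6, SD, n = 3 each; exact permutation p = 0.1, 0.9 after adjustment over the members). It was the only one of 9 members whose genotypes did not overlap there, where 9.02% of the 8760 genes did not overlap. The Bmp5 values of mice 5 and 6 came from 7 and 6 wells, with 15 and 25 transcripts. Zeb1 in telocyte-like wells stood at 94.0, 107 and 94.4 CPM in mice 1, 3 and 4. In mice 2, 5 and 6 it stood at 28.9, 30.2 and 91.2 CPM. None of 9 members was without overlap in iCAF-like wells (7.65% of genes) or over all fibroblast wells (6.3% of genes).

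**Figure D5:**
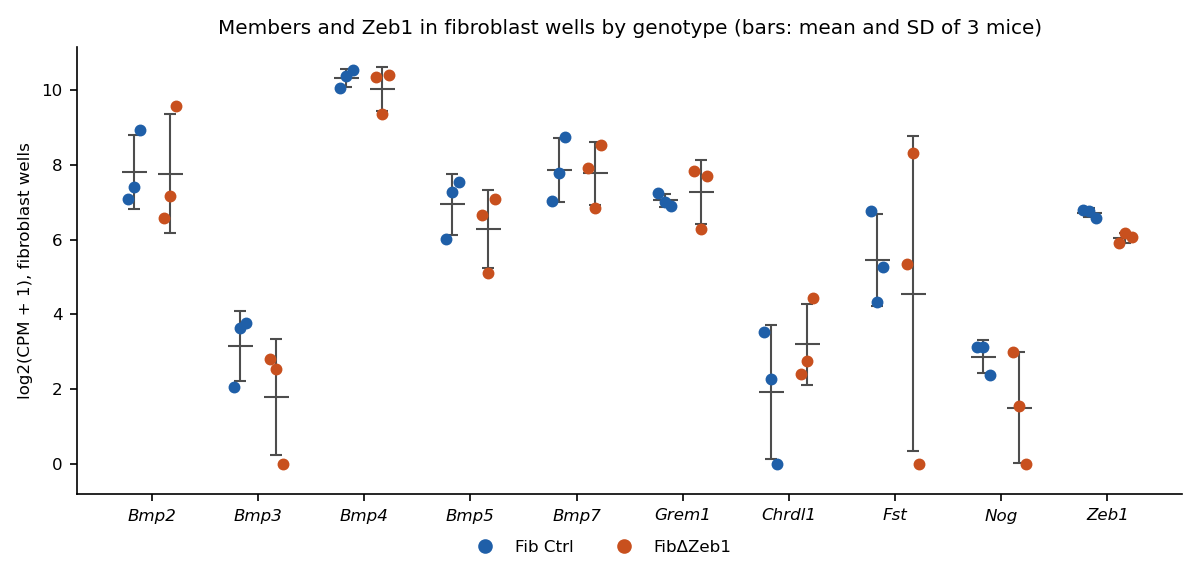
Level of each member and of Zeb1 (x axis) in fibroblast wells (log2 of CPM plus 1, y axis) in Zeb1Fib-Ctrl and Zeb1Fib-deleted mice (color); each point is 1 mouse, and bars give the mean and SD of 3 mice. The genotypes overlap for all 9 members and do not overlap for Zeb1.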

How the data were processed

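Estimated transcript counts and molecular barcode counts per gene and well were used from 6 plates, 3 mice a genotype. The deposited barcode table gives, as a whole count, how many molecular barcodes were seen per gene. The deposited estimated counts are these numbers after the authors corrected them for molecules that share a barcode, and they need not be whole. The authors took well and barcode from the first read of a pair, placed the second on GRCm38 transcripts using bwa and tallied both by a script of the sequencing provider; the submitters' processing notes also name Cell Ranger 2.1.1 without its role. Each well name occurs on all 6 plates because it is a plate position, not a shared cell.

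Spike-ins were dropped. Wells with 100 to 6000 genes and under 10% of transcripts from the 37 genes of the mitochondrial chromosome were kept. A well entered a fibroblast class with at least 4 of 10 fibroblast genes, and then iCAF-like with at least 5 of 12 markers and 2 more than of the telocyte-like list, or telocyte-like with at least 3 of 10 markers and more than of the iCAF-like list; pericyte-like wells had at least 4 of 10 markers. These cuts were set after the numbers of markers in the wells were seen. Doublets were not called; 11 of 648 mesenchymal wells had more than 1 transcript of Ptprc or Epcam and were left out in an alternative. Estimated counts were summed per mouse and class with at least 10 wells, rounded and compared by the quasi-likelihood test of edgeR 4.0.16 (R 4.3.3; TMM scaling, low counts removed by filterByExpr, mouse as a block, both genotypes in 1 fit) over all genes, with Benjamini-Hochberg adjustment. Genotypes were compared on sums over fibroblast wells and with exact permutation tests (scipy 1.17.1). Classes share their mice and wells are not replicates. The scripts were tested on simulated data. Alternatives were barcode counts, DESeq2 1.42.0, RLE size factors, no filter, mitochondrial genes by name, gates with 1 marker more or fewer, no mouse block, thinning to 1000 barcodes, at least 5 wells and leaving out each mouse. Promoters came from RefSeq on GRCm38.p6, in which 3 of 9 members matched, and gene positions from GENCODE on GRCm38. All members are described; other pathway genes are named where called (the results of 1 are not reported here), or, for a list without a call, by the highest mean level, and likeness used genes of at least 50 CPM. The members, lists and markers were chosen with earlier results of these data known.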

Additional observations from a re-analysis of the deposited data

Results flagged for a closer look

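In groups of 4 to 10 mice, the highest or lowest value was set apart from the others by Dixon's criterion in 14 of 81 groups tested; chance alone sets apart about 1 in 20 groups, and many of these values rest on few transcripts. For Bmp4, mouse 6 was low in telocyte-like wells (750.3 CPM, from 6 wells) and the difference of pericyte-like from fibroblast wells was smallest in mouse 1 (-2.59 on the log2(CPM + 1) scale). The telocyte-like minus iCAF-like difference of mouse 6 was 7.84 for Bmp5, which was at 0 in its 7 iCAF-like wells, and 0.00 for Bmp3, which was at 0 in both. Bmp3 stood at 5.973 CPM in other fibroblast wells of mouse 1 and at 0 in the other mice. Grem1 was lower in iCAF-like than in other fibroblast wells of mouse 5 (-3.32), where a single well held all Grem1 transcripts of the other fibroblast wells, and stood at 2.971 CPM in pericyte-like wells of mouse 2, from 2 transcripts, against 0 in the others.

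Chrdl1 stood apart in iCAF-like wells of mouse 6 (50.66 CPM, 5 transcripts), in other fibroblast wells of mouse 1 (47.87 CPM) and in pericyte-like wells of mouse 1 (13.48 CPM, 2 transcripts). Fst stood apart in mouse 5 in 4 groups: iCAF-like wells (383.9 CPM), other fibroblast wells (53.56 CPM), pericyte-like wells (322.4 CPM) and all fibroblast wells (318.8 CPM). For Nog, the difference of iCAF-like from other fibroblast wells had opposite signs in the genotypes, a mean of -0.42 in Zeb1Fib-Ctrl and of 0.97 in Zeb1Fib-deleted mice, each from 2 mice and from 0 to 14 transcripts a sum; the exact permutation test of the difference gave p = 0.3333, the smallest that 2 against 2 mice allow.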

How the results depend on the processing

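Of 755 alternative values, 643 kept their direction and their side of the threshold or stayed close to the value reported. Bmp2, Bmp5 and Bmp7 remained higher in telocyte-like than in iCAF-like wells under every alternative in which they were tested, with log2 differences of 1.24 to 2.58, 1.67 to 2.78 and 2.30 to 3.27, and Bmp4, Bmp5, Bmp7 and Grem1 remained lower in pericyte-like wells. Counts of calls moved most with thinning, which leaves less depth and let 2 members, Bmp4 and Bmp7, into the test: 121 genes and 1 member for telocyte-like minus iCAF-like, 21 and 0 for telocyte-like minus other fibroblast, 71 and 0 for iCAF-like minus other fibroblast and 229 and 2 for pericyte-like wells. Without the filter on low counts 6 members were called in each of the contrasts of telocyte-like wells, and the contrasts of other fibroblast wells had 369 (telocyte-like) and 753 (iCAF-like) genes. Mitochondrial genes by name (24 genes instead of 37) kept 1912 wells instead of 1233 and gave 263 and 726 genes there. A gate with 1 marker more gave 286 for telocyte-like minus other fibroblast wells, and no mouse block gave 70 (1 member) and 213. Leaving out 1 mouse gave 433 to 966 genes and 3 to 4 members for telocyte-like minus iCAF-like, 38 to 159 and 1 to 3 for telocyte-like minus other fibroblast, 139 to 336 and 1 to 2 for iCAF-like minus other fibroblast, and 807 to 1588 and 5 to 6 for pericyte-like wells; gene counts were lowest without mouse 1 in the first 3 contrasts and without mouse 2 in the last. DESeq2 called 8 genes between genotypes. Small differences changed sign. Bmp4 in iCAF-like minus other fibroblast wells was 0.09 without the filter, 0.20 with mitochondrial genes by name, 0.16 with at least 5 wells and 0.02 with mouse 6 also left out; Grem1 there was 0.22 with mitochondrial genes by name. Between genotypes, Bmp2 was -0.07 with mitochondrial genes by name, -0.74 with thinning and -0.44 with class as a covariate, where Bmp5 was 0.02 and Bmp7 0.39. That last fit lacked mice 3 and 6 and had no mouse block. With 1 mouse left out, the range was -1.02 to 0.04 for Fst in telocyte-like minus iCAF-like wells, -0.07 to 0.05 for Bmp4 and -0.62 to 0.63 for Grem1 in iCAF-like minus other fibroblast wells, and, between genotypes, -1.07 to 1.02 for Bmp2, -0.34 to 0.05 for Bmp4, -0.44 to 0.44 for Bmp7 and -1.13 to 2.19 for Fst. The causes were not tested. Leaving out mice 3 or 6 does not alter the class fits, since neither has 10 wells in a class. The alternatives with at least 5 wells and mouse 6 left out, the permutation within classes and the levels without the top well were chosen after seeing the data. Low depth limits Bmp3, Chrdl1 and Nog to counts.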

Other observations

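Wells outside the mesenchymal classes also held members. Epithelial wells of mice 4, 5 and 6, the mice with at least 5 such wells, stood at 144, 53 and 58.3 CPM of Bmp7, at 179, 12.6 and 233 CPM of Bmp2 and at 227, 0 and 72.8 CPM of Fst, while Bmp5 had no transcript in 74 epithelial wells. Bmp7 was found in 33 of 74 epithelial wells (44.6%, exact binomial 95% interval 33 to 56.6) as deposited and in 2.86% (0.348 to 9.94) after thinning to 1000 barcodes. The 973 wells left out for 10% or more mitochondrial transcripts held 3228 transcripts of Bmp4 (658 CPM, beside 819 CPM over kept wells of all classes), 659 of Bmp7 (134 beside 156 CPM) and 239 of Grem1 (48.8 beside 115 CPM).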
